A study of Mus musculus with 14 samples.

Results

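Genes that mark the progression of lung adenocarcinoma and the balance between epithelial and mesenchymal states were followed through sorted KPY tumors with and without a guide against Setd2. The set held 10 genes, chosen by name as Hmga2, Epcam, Cdh1, Cdh2, Vim, Zeb1, Zeb2, Snai1, Snai2 and Twist1, and each was found once, by its Ensembl identifier, among the 52550 genes of the count table. Of these, 8 passed the edgeR filter on low counts and were tested with the 16836 genes that passed, whereas Snai2 and Twist1 did not pass and are given as counts. Tumors of both groups arose in KPY mice of mixed B6J and 129S4vJae background, which carry both Trp53 alleles as flox/flox and the Cre reporter Rosa26 LSL-YFP on both alleles, so the control tumors also lack p53. Cre came from the lentivirus LentiCRISPRv2Cre, delivered to the airways, which also carried Cas9 and a guide RNA against β-galactosidase in the 6 KPY-Ctrl tumors or against Setd2 in the 8 KPY-Setd2KO tumors. Age is not given per tumor. Tumors were dissected one by one and sorted for live YFP-positive cells, and no removal of blood or endothelial cells is named for this sort. Some tumors shared a mouse, since fewer mice than tumors were used, but the mouse of each tumor is not given and all tests took each tumor as 1 independent sample. The labels describe RNA from cell lines and a stranded mRNA kit, in conflict with the methods.

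Epithelial cells of the lung hold together through E-cadherin junctions and carry EPCAM on their surface. In an epithelial-mesenchymal transition, transcription factors of the ZEB, Snail and Twist families repress such genes, and cells gain vimentin and N-cadherin. HMGA2, a chromatin protein of the embryo, is a known marker of advanced tumors in mouse models of lung adenocarcinoma. Several of these genes are not specific to tumor cells. Vimentin and ZEB2 are abundant in macrophages, and fibroblasts express vimentin, ZEB1 and Twist1.

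Total counts per tumor lay between 27866266 and 51828846 in KPY-Ctrl and between 20072236 and 40604404 in KPY-Setd2KO. Setd2, a histone H3 lysine 36 methyltransferase, measured 41.9 to 63.6 CPM (counts scaled to a common library size by the TMM method) in KPY-Ctrl and 17.9 to 47.4 CPM in KPY-Setd2KO. The groups overlapped through KPY-Setd2KO replicates 2 and 4, at 47.4 and 44.1 CPM, and the log2 fold change was -0.74 (SE 0.22, adjusted p = 0.175 in edgeR's quasi-likelihood test with Benjamini-Hochberg adjustment). A macrophage score, the mean log2 CPM of 15 macrophage genes such as Csf1r, Mrc1 and Marco, lay between 2.64 and 7.48 in KPY-Ctrl and between 2.50 and 7.49 in KPY-Setd2KO. It did not separate the genotypes (difference 0.74, two-sided exact permutation test over all splits of the tumors, adjusted p = 0.649 over 5 scores). Epithelial markers, led by keratins and claudins, were present in every tumor, with a summed level of 908 to 8509 CPM.

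Taken per kilobase of transcript (RPKM) and averaged over 14 tumors, Vim had the highest level of the set at 611 RPKM, followed by Epcam at 181 RPKM and Cdh1 at 176 RPKM. Zeb2 followed at 10.2 RPKM and Hmga2 at 7.37 RPKM. Cdh2, Zeb1 and Snai1 lay between 0.609 and 0.787 RPKM, and Twist1 and Snai2 were lower still, at 0.210 and 0.0957 RPKM. Of neighbours in this order, only Cdh1 (at least 87.1 RPKM) and Zeb2 (at most 33.2 RPKM) had ranges over the tumors that did not overlap.

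**Figure D1:**
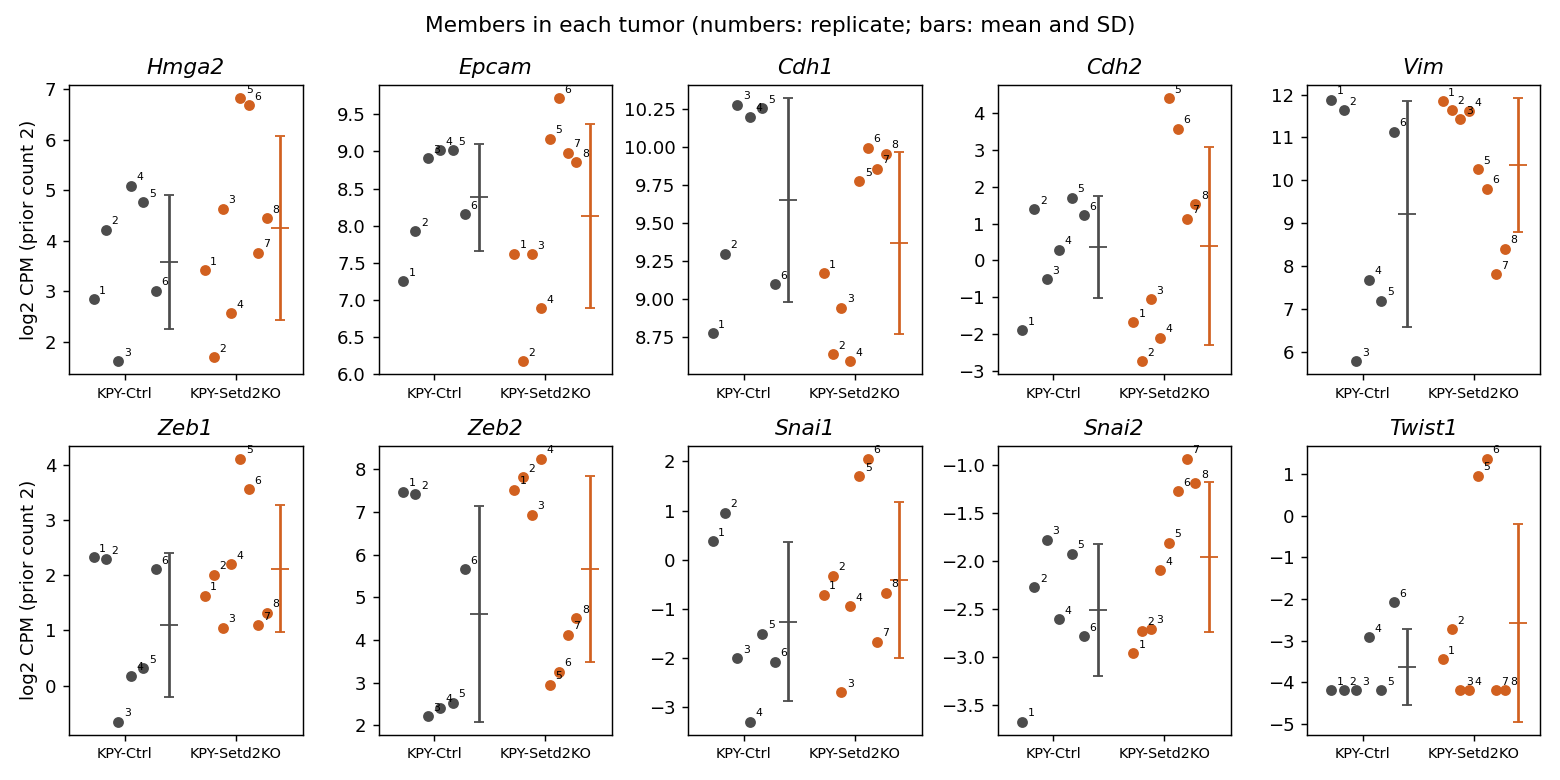
Each panel gives the log2 CPM (prior count 2) of 1 gene in every tumor, with replicate numbers beside the points and a bar for the mean and SD of each genotype (KPY-Ctrl, n = 6; KPY-Setd2KO, n = 8). KPY-Setd2KO replicates 5 and 6 stand highest for Hmga2, Cdh2, Zeb1, Snai1 and Twist1, while Zeb2 and Vim split the tumors of both genotypes into high and low values.

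Hmga2 occupies bases 120361275 to 120476469 of chromosome 10 (GRCm38, minus strand). It ranged from 3.04 CPM (KPY-Ctrl replicate 3) through a median of 13.3 CPM to 34.1 CPM (replicate 4) in KPY-Ctrl. In KPY-Setd2KO it ranged from 3.19 CPM through a median of 17.7 CPM to 112.9 CPM. The 2 highest values, 112.9 and 102.5 CPM, belonged to KPY-Setd2KO replicates 5 and 6, and the other 6 tumors of that genotype lay between 3.19 and 24.8 CPM, within the range of KPY-Ctrl. Against the mean log2 CPM of 12 epithelial markers, Hmga2 had a Pearson's r of 0.80 in the 8 KPY-Setd2KO tumors. In the 6 KPY-Ctrl tumors r was 0.10. Without the 2 tumors farthest from their genotype's median marker level, r was 0.84 in KPY-Ctrl and 0.51 in KPY-Setd2KO. The order of the genotypes thus rested on few tumors, and these values are a description. The log2 level of Hmga2 relative to this mean ran from -6.32 in KPY-Ctrl replicate 3 to -1.07 in KPY-Setd2KO replicate 5.

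Epcam, which encodes an adhesion molecule of epithelial cells, lies on chromosome 17 from 87635979 to 87651129. KPY-Ctrl tumors spanned 152 to 519 CPM around a median of 384 CPM, and KPY-Setd2KO tumors spanned 72.2 to 843 CPM around 330 CPM. KPY-Setd2KO replicates 1 to 4, at 72.2 to 197 CPM, and KPY-Ctrl replicate 1, at 152 CPM, were low, while KPY-Setd2KO replicates 5 and 6 were the highest of all tumors at 578 and 843 CPM. Relative to the epithelial markers, Epcam stayed within a narrow band of 0.77 to 1.58 on the log2 scale. The bases before its start are shown because they hold a hexamer that ZEB and Snail factors are known to bind, CAGGTG or its reverse complement CACCTG. The sequence, RefSeq's for GRCm38.p6 at chr17:87635729-87635978 on the plus strand, has the matches in capitals, and the same window of Snai1, at chr2:167537945-167538194 on the plus strand, follows for comparison.

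Epcam: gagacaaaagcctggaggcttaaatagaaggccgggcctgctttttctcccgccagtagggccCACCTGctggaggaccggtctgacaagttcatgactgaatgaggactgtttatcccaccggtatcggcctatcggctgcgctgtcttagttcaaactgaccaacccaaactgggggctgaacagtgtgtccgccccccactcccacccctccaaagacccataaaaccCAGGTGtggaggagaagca

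Snai1: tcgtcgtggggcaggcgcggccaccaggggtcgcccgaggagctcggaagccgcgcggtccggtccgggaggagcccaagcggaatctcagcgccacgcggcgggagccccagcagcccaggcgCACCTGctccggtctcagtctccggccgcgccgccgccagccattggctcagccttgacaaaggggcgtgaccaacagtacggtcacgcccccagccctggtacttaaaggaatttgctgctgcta

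Epcam held 2 such hexamers, beginning 187 and 19 bases before the start, and Snai1 held 1, beginning 126 bases before it. Of 32851 promoters in the RefSeq table, 17.2% held at least 1 match in these 250 bases and 2.06% held at least 2. Hmga2, Vim, Twist1 and the 4 listed starts of Zeb2 had no match in this window. Only these 6 genes of the set were examined, and Cdh1, Cdh2, Zeb1 and Snai2 were not. These letters describe the sequence only, as binding was not measured.

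Cdh1 encodes E-cadherin, the adhesion protein of epithelial junctions, and lies on chromosome 8 from 106603351 to 106670246. KPY-Ctrl tumors spanned 438 to 1242 CPM around a median of 903 CPM, and KPY-Setd2KO tumors spanned 386 to 1022 CPM around 727 CPM. Its spread was the smallest among the 8 genes tested, with an SD of 0.67 (n = 6) and 0.60 (n = 8) on the log2 CPM scale. KPY-Setd2KO replicates 1 to 4 were low, at 386 to 577 CPM, and replicates 5 to 8 were high, at 877 to 1022 CPM.

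Cdh2 encodes N-cadherin, the cadherin of neural and mesenchymal cells, and lies on chromosome 18 from 16588877 to 16809246. It was scarce in KPY-Ctrl, between 0.215 and 3.19 CPM, and ran from 0.0968 to 21.0 CPM in KPY-Setd2KO. KPY-Setd2KO replicates 5 and 6 measured 21.0 and 11.8 CPM, and the other 6 tumors of that genotype did not exceed 2.83 CPM, so the genotypes overlapped. Even in these tumors N-cadherin RNA remained a small share of E-cadherin RNA. Per length, Cdh2 was 2.19% of Cdh1 in replicate 5 and 1.06% in replicate 6, against 0.0222% to 0.379% in the others.

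Vim encodes vimentin, an intermediate filament of mesenchymal and blood cells, on chromosome 2 from 13573927 to 13582826. In KPY-Ctrl it ranged from 55.0 CPM through a median of 1227 CPM to 3754 CPM, and in KPY-Setd2KO from 224 CPM through 1987 CPM to 3665 CPM. KPY-Ctrl replicates 3 to 5 were low, at 55.0 to 205 CPM, and replicates 1, 2 and 6 were high, at 2249 to 3754 CPM. In KPY-Setd2KO, replicates 1 to 4 were high (2749 to 3665 CPM), replicates 7 and 8 low (224 and 339 CPM), and replicates 5 and 6 intermediate (1226 and 893 CPM). These last 2 tumors had low macrophage scores of 2.50 and 2.63, near those of KPY-Ctrl replicates 3 to 5 (2.64 to 3.19). Relative to the macrophage score, their log2 Vim level was 7.76 and 7.17, and in every other tumor it lay between 2.85 and 5.51.

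Zeb2, a zinc-finger repressor that macrophages also use, lies on chromosome 2 from 44983632 to 45117395. KPY-Ctrl tumors spanned 4.56 to 177 CPM around a median of 28.1 CPM, and KPY-Setd2KO tumors spanned 7.67 to 303 CPM around 72.4 CPM. The high tumors were KPY-Ctrl replicates 1 and 2 (177 and 170 CPM) and KPY-Setd2KO replicates 1 to 4 (122 to 303 CPM), the 6 tumors with macrophage scores of 6.38 to 7.49. Unlike Vim, Zeb2 kept to the macrophage score in KPY-Setd2KO replicates 5 and 6, at 7.67 and 9.48 CPM, and its log2 level relative to the score stayed between -0.78 and 1.09 in all tumors.

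Zeb1, the paralog of Zeb2 and a repressor of E-cadherin, lies on chromosome 18 from 5591860 to 5775467. KPY-Ctrl tumors spanned 0.581 to 4.97 CPM around a median of 2.73 CPM, and KPY-Setd2KO tumors spanned 2.01 to 17.2 CPM around 3.50 CPM. KPY-Setd2KO replicates 5 and 6 were the highest, at 17.2 and 11.7 CPM, and no other tumor exceeded 4.97 CPM. Among KPY-Ctrl tumors, the 3 with low macrophage scores (replicates 3 to 5) had 0.581 to 1.19 CPM and the others 4.27 to 4.97 CPM.

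Snai1 encodes Snail, a repressor of E-cadherin, on chromosome 2 from 167538195 to 167542814. KPY-Ctrl tumors spanned 0.0469 to 1.88 CPM (median 0.246 CPM) and KPY-Setd2KO tumors 0.0990 to 4.10 CPM (median 0.565 CPM). The highest values were again those of KPY-Setd2KO replicates 5 and 6, at 3.18 and 4.10 CPM, followed by KPY-Ctrl replicates 2 and 1 at 1.88 and 1.24 CPM. Snai2, which encodes Slug, was near the limit of detection, with 1 to 14 counts per tumor and 92 in all. Its highest levels, 0.359 to 0.467 CPM, were in KPY-Setd2KO replicates 6 to 8. Twist1, a basic helix-loop-helix factor of mesoderm, had 90 and 98 counts in KPY-Setd2KO replicates 5 and 6, at most 8 in any other tumor and 0 in 8 tumors. A count of 0 allows up to 3 counts.

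To address whether the genotypes differed in these genes, KPY-Setd2KO tumors were compared with KPY-Ctrl tumors. None of the 8 genes tested passed an adjusted p of 0.05. The CPM ranges of all 10 overlapped between genotypes, beside 0.57% of all genes tested whose ranges did not. The background was the same, as 0% of the 16836 genes passed in edgeR's quasi-likelihood test. At an unadjusted p under 0.05, 13.7% of all genes and 0 of the 8 stood out. DESeq2 called 3.58% of the 19231 genes it adjusted and none of the set. In a set this small, counts of 0 cannot be told from these shares. Cdh2 and Hmga2 had the largest estimates. The log2 fold change of Cdh2 was 1.54 (95% interval -0.85 to 3.93, adjusted p = 0.600 in edgeR's quasi-likelihood test) and that of Hmga2 was 1.18 (-0.55 to 2.91, adjusted p = 0.573). Zeb1, at 1.06 (-0.32 to 2.44), and Snai1, at 0.98 (-0.97 to 2.93), came next. The estimates for Zeb2, Vim, Epcam and Cdh1 were 0.69, 0.27, 0.02 and -0.30. Only the interval of Cdh1 (-0.99 to 0.38) lay within a 2-fold change in either direction. Without KPY-Setd2KO replicates 5 and 6, the estimates of Hmga2, Epcam, Cdh2 and Snai1 changed sign, to -0.32, -0.52, -0.77 and -0.48. Zeb1 dropped to 0.11. These tumors were picked after their values had been seen and were the highest for all of these genes. Leaving them out had to lower the estimates, so the change is a description and no test.

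**Figure D2:**
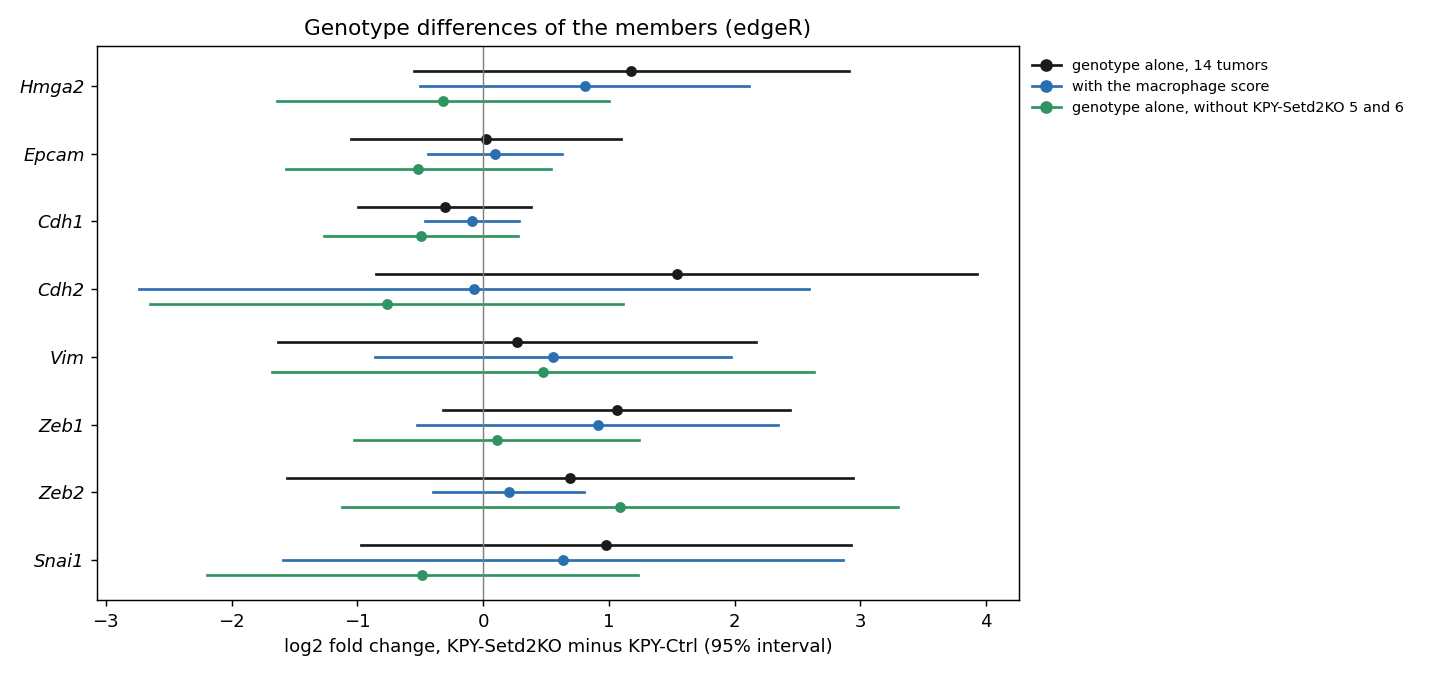
Points give the log2 fold change of KPY-Setd2KO over KPY-Ctrl for each tested gene, with lines for the 95% intervals from edgeR, for genotype alone, with the macrophage score in the model, and without KPY-Setd2KO replicates 5 and 6. All intervals shown include 0. Leaving out the 2 tumors moves Hmga2, Epcam, Cdh2 and Snai1 from positive to negative estimates. The 2 tumors were picked after their values had been seen and were the highest for these genes, so this shift is a description.

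To separate variation linked to macrophages from variation among the tumor cells, each gene was regressed on the macrophage score together with genotype. The slope is the log2 change per unit of score, that is, per doubling of the average macrophage marker. Of the 8 genes, 6 passed edgeR's quasi-likelihood test of the slope at an adjusted p of 0.05, 2 rising and 4 falling, where 54.6% of all genes did (27.5% rising and 27.2% falling), so such slopes were common in this dataset. Zeb2 rose by 1.09 per unit (SE 0.08, adjusted p = 2.11e-07), a slope near 1, and Vim rose by 0.62 (SE 0.17, adjusted p = 0.00635). The epithelial genes fell, Epcam with a slope of -0.43 (SE 0.06, adjusted p = 9.44e-05) and Cdh1 with -0.26 (SE 0.04, adjusted p = 0.000219). Hmga2 (-0.47, SE 0.14, adjusted p = 0.0126) and Cdh2 (-0.74, SE 0.23, adjusted p = 0.0149) also fell, although Cdh2 is a mesenchymal cadherin. Slopes for Zeb1 (-0.09, adjusted p = 0.635) and Snai1 (-0.14, adjusted p = 0.623) did not pass the test. In bulk RNA, fewer cells of a type and less RNA per cell cannot be told apart.

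**Figure D3:**
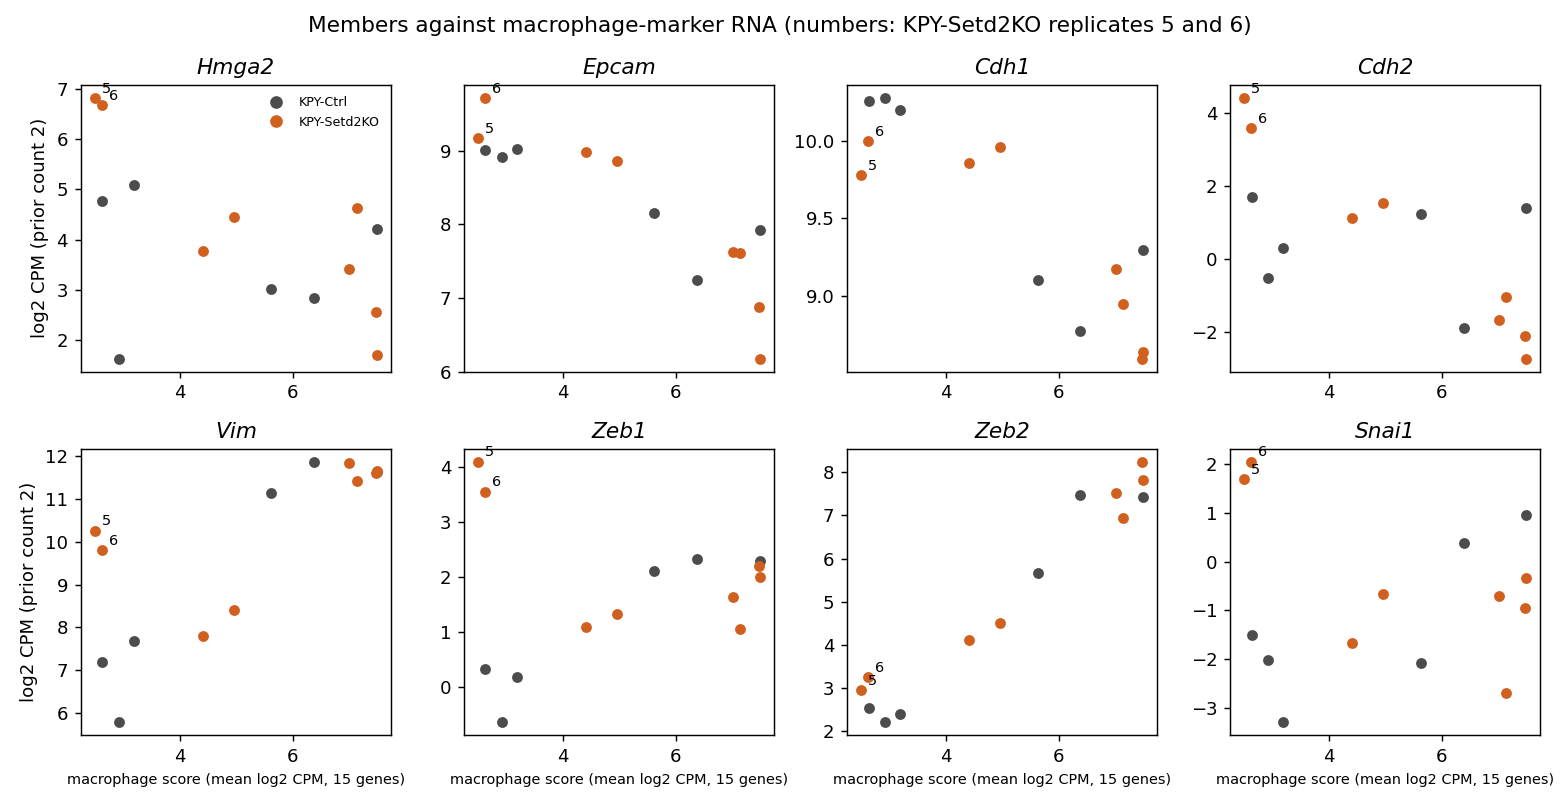
Each panel plots the log2 CPM (prior count 2) of 1 gene against the macrophage score of the tumor, with 1 point per tumor, colored by genotype, and numbers on KPY-Setd2KO replicates 5 and 6. Zeb2 follows the score across all 14 tumors, while for Vim, Zeb1 and Snai1 replicates 5 and 6 lie above the other tumors with low scores.

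The slopes of 5 genes moved when KPY-Setd2KO replicates 5 and 6 were left out. These tumors were picked after their values had been seen, in part because they were highest for Zeb1 and Snai1 at low macrophage scores, so the slopes over the other 12 tumors are a description and no test. The slope of Zeb1 went from -0.09 to 0.48 and that of Snai1 from -0.14 to 0.53. Those of Hmga2 and Cdh2 went from -0.47 to -0.21 and from -0.74 to -0.35. In edgeR's quasi-likelihood test these no longer passed (adjusted p = 0.319 and 0.243), while Zeb1 and Snai1 now did (adjusted p = 0.00298 and 0.0378). Given how the tumors were picked, neither the lost nor the gained calls count as a test result. The slope of Vim went from 0.62 to 1.26, equal to the 1.26 of Zeb2 in these tumors. Epcam and Cdh1 had slopes of -0.43 and -0.33. Only Zeb1 and Snai1 changed direction. Among all 16169 genes of this fit, 24.3% rose and 24.8% fell at an adjusted p of 0.05.

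Slopes were also estimated within each genotype, a comparison chosen after the plots had been seen. The slopes differed for Cdh2 and Zeb1, where 0.606% of all genes passed the same edgeR quasi-likelihood test. The slope of Zeb1 was 0.60 in KPY-Ctrl and -0.38 in KPY-Setd2KO (difference -0.98, SE 0.20, adjusted p = 0.0460), and that of Cdh2 was 0.00 and -1.30 (difference -1.30, SE 0.25, adjusted p = 0.0401). Without KPY-Setd2KO replicates 5 and 6, a choice also made after their values were seen, neither passed (Zeb1 -0.34, adjusted p = 0.350; Cdh2 -1.35, adjusted p = 0.0994), and with each of the 14 tumors left out in turn, Zeb1 passed in 2 fits and Cdh2 in 3. The slopes of Zeb2 were 1.24 and 1.01 and those of Cdh1 -0.28 and -0.25, with differences that did not pass the test (adjusted p = 0.749 and 0.984).

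With the macrophage score in the model, 312 genes (1.85%, with 1.22% higher in KPY-Setd2KO) differed by genotype in edgeR's quasi-likelihood test, and 0 of the 8 were among them. The log2 fold changes were 0.91 for Zeb1, 0.81 for Hmga2, 0.64 for Snai1, 0.56 for Vim, 0.20 for Zeb2 and between -0.10 and 0.10 for Epcam, Cdh1 and Cdh2. The 95% intervals narrowed for Zeb2 (-0.40 to 0.81), Epcam (-0.44 to 0.62) and Cdh1 (-0.46 to 0.28), so that a 2-fold genotype difference at a given macrophage score lay outside them. They stayed wide for Cdh2 (-2.73 to 2.59) and Hmga2 (-0.50 to 2.12). Setd2 itself passed in this model (-0.89, adjusted p = 0.0423). The count of genes depended on single tumors, with 0 called without KPY-Ctrl replicate 5, where Setd2 and the other calls of this model were lost, and 554 without KPY-Setd2KO replicate 1.

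Read together across genes, KPY-Setd2KO replicates 5 and 6 combined high Hmga2, Cdh2, Zeb1, Snai1 and Twist1 with the 2 highest Epcam values. Cdh1 measured 877 and 1022 CPM in them, below the 1176 to 1242 CPM of KPY-Ctrl replicates 3 to 5, whose macrophage scores were similar. Relative to the epithelial markers, log2 Cdh1 was 1.88 and 1.81 in KPY-Setd2KO replicates 5 and 6. This was near the 1.87 of KPY-Setd2KO replicates 7 and 8 and below the 2.33 to 2.67 of KPY-Ctrl. KPY-Setd2KO replicates 1 to 4 lay between 2.28 and 3.38, so the genotypes overlapped. KPY-Setd2KO replicates 5 and 6 were not chosen by a label, so their values are a description without a test. Whether they came from the same mouse is not given. Their Setd2 levels, 27.8 and 18.2 CPM, were within the range of their genotype. Their fibroblast scores, the mean log2 CPM of 10 genes such as Col1a1, were -0.31 and -0.58. Both were below the median of KPY-Setd2KO, -0.15, in a range of -0.85 to 0.40. KPY-Ctrl tumors lay between -1.71 and -0.46 apart from replicate 2 at 1.84, so that KPY-Setd2KO replicate 5 was above 5 of the 6 KPY-Ctrl tumors. The endothelial scores of KPY-Setd2KO replicates 5 and 6 were 1.05 and 1.63, within the KPY-Ctrl range of -0.64 to 2.70. Over all tumors, the 10 fibroblast genes summed to 6.46 to 93.2 CPM, and 3 of them were at 0 in some KPY-Ctrl tumor and 2 in some KPY-Setd2KO tumor. The 9 endothelial genes summed to 45.9 to 344 CPM. The part of these cell types in the members' levels was not tested further.

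Other genes of the same programs were examined from lists of related genes. Of 28 epithelial junction and keratin genes, 26 fell with the macrophage score, 0 rose and 2 did not pass (median slope -0.41, against -0.01 over all genes tested, of which 27.2% fell and 27.5% rose). The steepest were Cgn, a tight-junction protein (slope -0.52, adjusted p = 0.000123 in edgeR's quasi-likelihood test), and Dsp, the desmosome linker desmoplakin (-0.51, adjusted p = 2.65e-05). F11r (0.06) and Marveld2 (-0.05) did not pass. Of 15 epithelial regulators, 13 fell, among them the lung lineage factors Foxa2 (-0.56, adjusted p = 0.000385) and Nkx2-1 (-0.52, adjusted p = 0.000840). Klf4 (0.84, adjusted p = 6.68e-05) and Ovol2 (0.22, adjusted p = 0.0114) rose. By genotype, no gene of either list passed, and the medians were -0.09 and -0.39, against 0.03 over all genes.

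Mesenchymal genes moved in both directions, as did all genes tested, of which 27.5% rose and 27.2% fell. Of 22 matrix and cytoskeleton genes tested of 23, 3 rose with the macrophage score, 9 fell and 10 did not pass (median slope -0.29). The risers included Tgfbi, a secreted matrix protein (0.98, adjusted p = 2.26e-06 in edgeR's quasi-likelihood test), and Axl, a receptor tyrosine kinase that macrophages use (0.84, adjusted p = 0.000167). The third was the calcium-binding protein S100a4 (0.53, adjusted p = 0.0288). The steepest falls were those of Tnc, the matrix glycoprotein tenascin C (-1.11, adjusted p = 0.00355), and Itgb3, an integrin subunit (-0.99, adjusted p = 0.00102). Both were led by KPY-Setd2KO replicates 5 and 6. Itgb3 measured 115 and 88.7 CPM there and 0.466 to 7.38 CPM elsewhere, and Tnc measured 897 and 337 CPM there, 127 CPM in KPY-Setd2KO replicate 8 and 1.11 to 58.5 CPM elsewhere. No gene of the list passed by genotype alone. Acta2, smooth muscle actin, had the smallest p (-2.0, SE 0.39, adjusted p = 0.116) and was lower in KPY-Setd2KO once the score was in the model (-1.90, adjusted p = 0.0423). It ranged from 8.57 to 36.9 CPM in KPY-Ctrl and from 2.05 to 9.75 CPM in KPY-Setd2KO. In KPY-Setd2KO replicates 5 and 6, Acta2 measured 4.90 and 2.05 CPM and S100a4 measured 5.82 and 5.41 CPM. Unlike Itgb3 and Tnc, neither gene was high in these tumors.

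Among mesenchymal regulators, 17 of 21 were tested, of which 4 rose with the score, 7 fell and 6 did not pass (median slope -0.05), beside 27.5% rising and 27.2% falling over all genes. Tgfb1 (0.45, adjusted p = 0.00185 in edgeR's quasi-likelihood test) and the transcription factor Runx2 (0.44, adjusted p = 0.00197) rose. The other TGF-β ligands, Tgfb2 (-0.75, adjusted p = 0.000533) and Tgfb3 (-0.61, adjusted p = 0.00211), fell. Tgfb2 reached 47.2 and 35.3 CPM in KPY-Setd2KO replicates 5 and 6 and at most 6.58 CPM in other tumors, and Tgfb3 reached 44.4 and 29.8 CPM, against at most 11.6 CPM. By genotype, 0 of the 17 passed, with the largest estimate for Tgfb3 (2.98, adjusted p = 0.175) and the smallest for Snai3, a Snail paralog (-1.67, adjusted p = 0.175). Tcf4, a basic helix-loop-helix factor, had the smallest p (1.36, adjusted p = 0.129) and was higher in KPY-Setd2KO with the score in the model (1.34, SE 0.32, adjusted p = 0.0477).

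Of 21 genes tested of 25 linked to Hmga2 or to tumor progression, 14 fell with the macrophage score, 3 rose and 4 did not pass (median slope -0.48), beside the same 27.2% falling and 27.5% rising over all genes. Tm4sf1 (-0.74, adjusted p = 3.56e-05 in edgeR's quasi-likelihood test) and the integrin subunit Itgb4 (-0.66, adjusted p = 0.000321) fell most, and Plaur, the urokinase receptor (0.36, adjusted p = 0.0162), and the RNA-binding protein Igf2bp2 (0.28, adjusted p = 0.0387) rose. None passed by genotype. The estimates ran from -2.19 for Gkn2, a gastrokine (adjusted p = 0.289), to 2.78 for Cd109, a membrane protein (adjusted p = 0.365). Cd109 measured 14.9 and 10.5 CPM in KPY-Setd2KO replicates 5 and 6 and 0 to 2.22 CPM elsewhere. Cldn2, a claudin, had the smallest p (-1.66, adjusted p = 0.230).

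**Figure D4:**
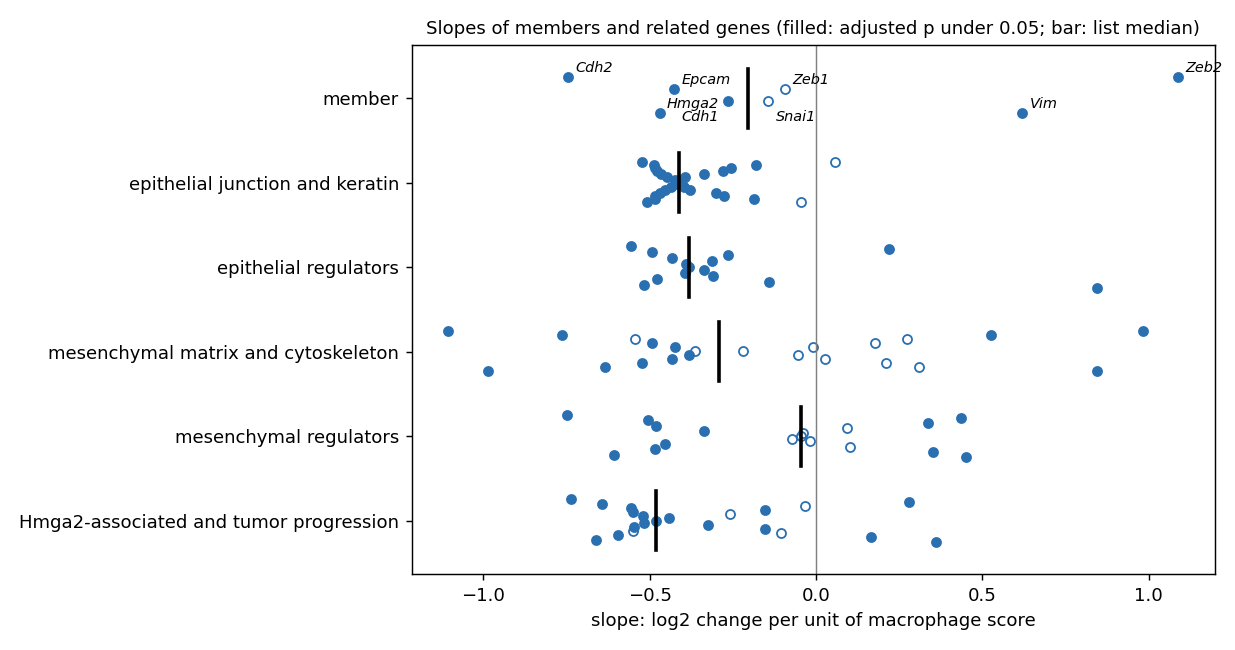
Each point is the slope of 1 gene on the macrophage score (log2 change per unit of score), by list, with filled points for an adjusted p under 0.05 and a bar for the list median. Epithelial genes lie mostly below 0, with medians of -0.41 and -0.38, and the mesenchymal lists reach from -1.11 to 0.98.

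**Figure D5:**
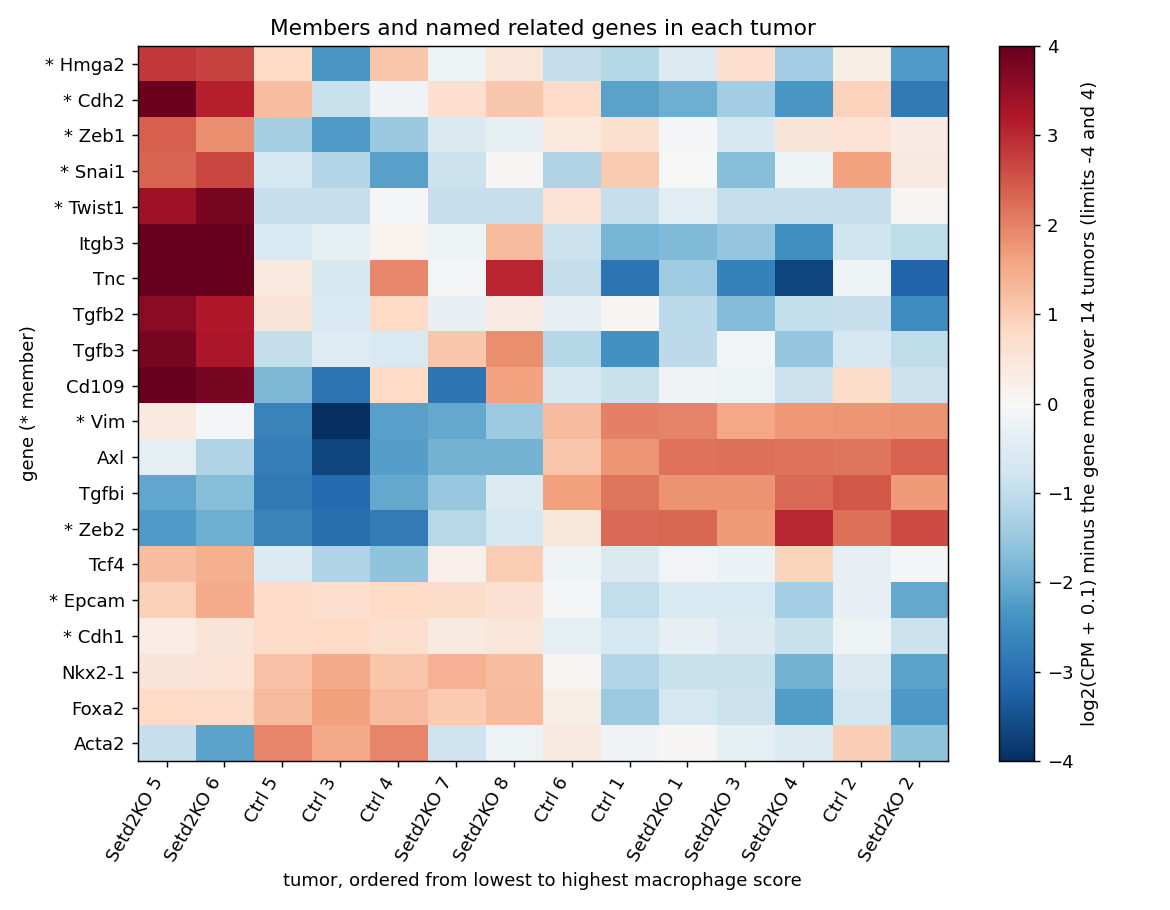
Colors give log2(CPM + 0.1) minus the gene's mean over the 14 tumors, limited to -4 and 4, for members (starred) and named related genes, with the tumors ordered from the lowest macrophage score on the left to the highest on the right. KPY-Setd2KO replicates 5 and 6, at the left edge, are high for Hmga2, Cdh2, Zeb1, Snai1, Twist1, Itgb3, Tnc, Tgfb2, Tgfb3 and Cd109. Acta2 is not high in them (4.90 and 2.05 CPM). Vim, Axl, Tgfbi and Zeb2 are highest at the right.

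The genes whose pattern was most like each member were ranked by Pearson's r of log2 CPM over the 14 tumors after the genotype means were removed. These values are descriptive, as the tumors share the same variation in macrophage RNA. Hmga2 was most like Pcyt1b (r = 0.986), Ankrd1 (0.973) and Ism1 (0.958), Cdh2 most like Steap2 (0.968), Stc1 and Chn1, and Epcam most like Bgn (0.994), Yap1 and Ckap4. For Cdh1 the leading genes were Cmtm4 (0.984), Lrba and Osbpl10, and for Vim they were Slc29a1 (0.989), Ptpre and Ggh. Zeb2 went with Cxcr4 (0.994), Nlrp3 and Cd69, genes of blood cells. The closest genes to Zeb1 were Ccl2 (0.925), Slc9a2 and Ccbe1, whereas those to Snai1 were less alike, at 0.911 for Cnnm4, 0.868 for Slc20a1 and 0.837 for Cxcl3.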

How the data were processed

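RNA-seq covered 6 KPY-Ctrl tumors and 8 KPY-Setd2KO tumors. Estimated counts without normalization, rounded to whole numbers, were deposited by the authors for each Ensembl gene. They were made with Salmon 0.8.2 against GRCm38.p5 per the labels, and 3 entries of the table are rounded to 3 digits. Columns were matched to tumors by name. Gene symbols, positions and lengths came from the GENCODE annotation of GRCm38, which matched 52403 of 52550 identifiers.

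Counts were normalized by TMM, filtered with edgeR's expression filter and tested with edgeR 4.0.16 in R 4.3.3 (quasi-likelihood test, robust estimation, Benjamini-Hochberg adjustment over all genes tested, threshold 0.05). Log2 CPM used a prior count of 2, and RPKM used the longest annotated transcript. The macrophage score was the mean log2 CPM of 15 genes, none of them a member. Intervals are at 95%. Named were all members, Setd2, the 3 genes most like each member and, per list, the gene of smallest p and those with the largest and smallest fold changes and slopes. Alternatives used DESeq2 1.42.0, limma 3.58.1, other normalizations and filters, other scores, and each tumor left out in turn. The procedure was tested on simulated counts. Members and lists were chosen with earlier results of these data known. No 2 libraries agreed within counting noise, and counting error was small beside the spread between tumors for all but the scarce genes. Same-numbered tumors of the genotypes did not deviate together (r from -0.664 to 0.657 over 6 pairs), so the numbers were not treated as pairs. Some items, among them an allele of these mice and a listed gene, are not reported here.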

Additional observations from a re-analysis of the deposited data

Results flagged for a closer look

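The fibroblast score of KPY-Ctrl replicate 2 was 1.84, far from the other 5 KPY-Ctrl tumors, which lay between -1.71 and -0.46. It was the 1 tumor that stood apart by Dixon's gap criterion among 32 groups of values examined, where chance gives about 1 in 20. Its Vim (3189 CPM), Zeb1 (4.83 CPM) and Cdh2 (2.55 CPM) were within the range of the other KPY-Ctrl tumors. Its Snai1, at 1.88 CPM, was the highest of that genotype.

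The slope on the macrophage score differed between genotypes for Cdh2 (-1.30, KPY-Setd2KO minus KPY-Ctrl) and for Zeb1 (-0.98) by edgeR's quasi-likelihood test of the difference. This comparison was chosen after the plots had been seen. Without KPY-Setd2KO replicates 5 and 6, neither gene passed the same test (adjusted p = 0.0994 for Cdh2 and 0.350 for Zeb1). In the 14 fits that each left out 1 tumor, the difference for Zeb1 ranged from -1.08 to -0.85 and passed in 2, without KPY-Setd2KO replicate 7 or 8. That for Cdh2 ranged from -1.55 to -1.01 and passed in 3, without the same tumors or without KPY-Ctrl replicate 1. In the other fits the adjusted p reached 0.145 for Zeb1 and 0.227 for Cdh2.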

How the results depend on the processing

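The genotype comparison called 0 genes on genotype alone, 688 with DESeq2, 312 with the macrophage score and 1228 with the epithelial score as a covariate, and 0 to 1 when each tumor was left out, the 1 without KPY-Ctrl replicate 6. No member was called in any of these fits. The sign of Epcam was not stable, at -0.085 with library sizes only, -0.038 without the filter, -0.25 with limma voom and -0.18 with the epithelial score, and -0.28 to 0.18 with each tumor left out. With the score in the model and library sizes only it was -0.056. Cdh2 was -0.12 with the epithelial and -0.070 with the macrophage score. With the score in the model, 1753 genes were called by DESeq2, and edgeR called 0 to 554 with each tumor left out (lowest without KPY-Ctrl replicate 5, highest without KPY-Setd2KO replicate 1), where Cdh1 ran from -0.19 to 0.045 and Cdh2 from -0.61 to 0.95. No member passed there.

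Slopes on the macrophage score kept 6 called members in all fits that left out 1 tumor, with 8316 to 9322 genes called. Zeb1 ran from -0.17 to 0.047 in them, and was 0.032 on the score of other leukocytes. Without KPY-Setd2KO replicates 5 and 6, chosen after the data were seen, the genotype estimates of Hmga2, Epcam, Cdh2 and Snai1 became -0.32, -0.52, -0.77 and -0.48, the slopes of Zeb1 and Snai1 0.48 and 0.53, and 71 genes differed by genotype with the score in the model. There Cdh1 was 0.075, Vim -1.07 (adjusted p = 0.212 in edgeR's quasi-likelihood test), Zeb1 -0.37, Zeb2 -0.28 and Snai1 -0.80. The difference of slopes was then called in 176 genes and 0 members, with Cdh1 -0.14, Vim 0.12 and Zeb2 0.055. With each tumor left out it was called in 5 (without KPY-Ctrl replicate 2) to 161 genes and 0 to 3 members, and Cdh1 ran from -0.022 to 0.18.

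With the replicate number as a block, the slope was called in 4372 genes and 3 members, Zeb2, Vim and Cdh1, with Zeb1 at 0.081, and the genotype comparison with the score in 0 genes. The genotype estimate of Epcam was then -0.53 and of Cdh2 -0.20, and with the score they were -0.081 and 0.46. The endothelial score differed by 0.49 to 1.16 between genotypes with each tumor left out (exact permutation p = 0.0490 without KPY-Ctrl replicate 6), the fibroblast score by 0.29 to 1.00 (0.00544 without KPY-Ctrl replicate 2), and the epithelial score by -0.26 to 0.19. The causes were not tested. Depth limits Snai1, Snai2, Twist1 and Cdh2, which had 3 to 13 counts in 5 tumors.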

Other observations

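Without the filter on low counts, Snai2 and Twist1 entered the fits. Their genotype log2 fold changes were 0.71 and 3.57 (adjusted p = 0.616 and 0.383 in edgeR's quasi-likelihood test). The slope of Twist1 on the macrophage score was -0.96 (adjusted p = 0.0376), carried by its counts of 90 and 98 in KPY-Setd2KO replicates 5 and 6, and that of Snai2 was -0.30 (adjusted p = 0.162).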
